A study of Mus musculus with 32 samples.

Results

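The comparison described here sets 10 cortex libraries of Dp(16)1/Df(16)8 mice against 12 of +/+ mice, 22 of the 32 libraries of the series. The libraries were chosen by their genotype label, and each carries an animal number of its own. All animals were 6 weeks old, and both groups held equal numbers of females and males by label, 5 and 5 in Dp(16)1/Df(16)8 and 6 and 6 in +/+. Dp(16)1 is a chromosome 16 with a tandem duplication, made by chromosome engineering, of the interval from Lipi to Zbtb21, and Df(16)8, the other chromosome 16 of these animals, lacks the proximal part of that interval. By background knowledge the animals therefore carry 3 copies of the genes from Mrpl39 to Zbtb21 and 2 copies of those from Lipi to Ncam2, all of them on chromosomes of normal number. The +/+ mice carry neither rearrangement. The third genotype of the series, Ts65Dn;Df(17)2 (10 libraries), carries nearly the same additional genes on a freestanding chromosome; it entered the fit and serves here for side-by-side values. The strain background and any litter relations were not given in the sources used here.

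Human trisomy 21 causes Down syndrome, and the distal part of mouse chromosome 16 holds the largest block of genes orthologous to human chromosome 21. A gene present in 3 copies in place of 2 gives 1.5 times as much RNA where transcription follows copy number, and regulation of a gene by its own product or by other genes can move it away from that value. The genes of this block code for proteins as different as the amyloid precursor protein, interferon receptor chains, a superoxide dismutase, the kinase Dyrk1a and the oligodendrocyte factors Olig1 and Olig2.

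Library totals ran from 5795479 to 9149196 counts in Dp(16)1/Df(16)8 and from 6375698 to 8532009 in +/+, and mitochondrially encoded genes took 2.55% to 3.30% and 2.32% to 3.61% of them. Of 55401 genes in the table, 16042 had enough counts to be tested. In Dp(16)1/Df(16)8 replicate 2 the Y-linked genes Eif2s3y and Ddx3y had 281 and 696 counts and Xist had 14, against its label of female; it was kept with the sex of its label in every fit, and the counts of changed genes are given below also without it. Markers of striatal neurons, which lie beneath the cortex, varied widely between libraries: the mean log2 CPM (library-scaled counts, with TMM factors) of 18 markers was 6.14 ± 1.29 (SD, n = 10) in Dp(16)1/Df(16)8 and 5.56 ± 1.32 (SD, n = 12) in +/+, a difference of 0.58 (permutation p = 0.304, two-sided). Within blocks of neighbouring animal numbers the difference was 0.74 (permutation p = 0.197). Excitatory cortical neuron markers were present in every library, with summed levels of 1798 to 3151 CPM in Dp(16)1/Df(16)8 and 1812 to 3159 CPM in +/+. In each group the library farthest from the others of its group was Dp(16)1/Df(16)8 replicate 1 and +/+ replicate 11, with median absolute log2 differences of 0.203 and 0.20 over genes outside the engineered segments, where the group medians were 0.156 and 0.155.

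RNA of the additional segment was higher in each of the 10 animals, by about the ratio of gene copies. Per animal, the median gene from Mrpl39 to Zbtb21 (GRCm38, chromosome 16, 84717576 to 97962622) was set against the +/+ mean of the same sex by label. It stood at 1.47 to 1.55 times that mean in Dp(16)1/Df(16)8, with a median of 1.52, and at 0.975 to 1.04 in the 12 +/+ animals. The groups lay far apart, with 1.52 ± 0.0245 (SD, n = 10) against 1.01 ± 0.0207 (SD, n = 12), a ratio of 1.501 (2 standard errors either way, 1.478 to 1.525; permutation p = 1.0e-05, two-sided, the smallest that 100000 permutations can give). Within the 5 blocks of neighbouring animal numbers that hold both genotypes the ratio ran from 1.485 to 1.544. Of the 285 annotated genes of the segment 77 could be tested, and 55 of them rose, where 0.418% of all tested genes rose by the same rule (edgeR's quasi-likelihood test, Benjamini-Hochberg adjusted p below 0.05). For 38 of the 77, 49.4%, every Dp(16)1/Df(16)8 animal was above every +/+ animal, which held for 0.243% of all tested genes.

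**Figure D1:**
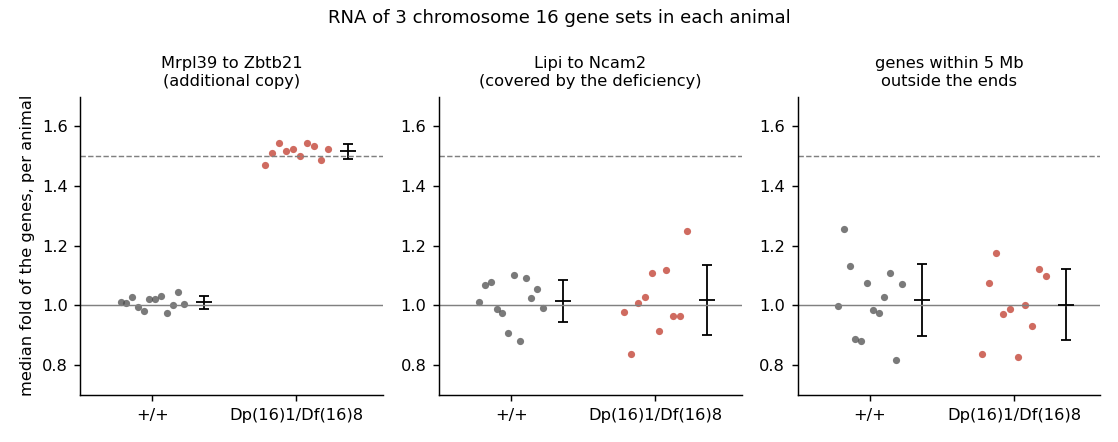
Median fold of the tested genes of 3 chromosome 16 gene sets in each animal (vertical axis, linear), for 12 +/+ and 10 Dp(16)1/Df(16)8 animals, with group mean and SD at the right of each group; the solid line marks 1 and the dashed line 1.5. In the additional segment the Dp(16)1/Df(16)8 animals lie between 1.47 and 1.55, all above the +/+ animals, while the groups overlap in the other 2 sets.

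Gene by gene, all 77 folds were above 1, and 71 lay between 1.2 and 1.8. The median was 1.538 with quartiles of 1.425 and 1.622, from 1.16 for the zinc finger gene Prdm15 to 1.924 for the carbonyl reductase gene Cbr3, and neither of these extremes passed the test. With blocks of neighbouring animal numbers as a term 60 of the 77 passed, and the 5 added were Prdm15 (adjusted p = 0.0409), Cbr3 (0.0365), Olig2 (0.0182), Il10rb (0.0395) and the glycosyltransferase gene B3galt5. With the striatal marker level as a term 57 passed. Cbr3 was among them at a log2 fold of 0.68, against 0.94 without the term (adjusted p = 1.5e-04, edgeR). B3galt5, Hunk and Kcnj6 passed with it too, Prdm15 did not (0.0737), and Smim11 and Mx2 no longer did (0.0652 and 0.0785). The 22 genes that did not pass had a median fold of 1.422 and a median +/+ level of 4.41 CPM, against 37.8 CPM for the 55 that rose, so that most were scarce; their median standard error was 0.187 on the log2 scale. Sorted by level, the median fold was 1.585 for the 25 scarcest, 1.554 for the 26 in the middle and 1.489 for the 26 most abundant genes. Sorted by position it was 1.547, 1.499 and 1.581 from the proximal over the middle to the distal genes. The median over the 77 genes of the SD of log2 CPM was 0.168 in Dp(16)1/Df(16)8 and 0.202 in +/+.

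**Figure D2:**
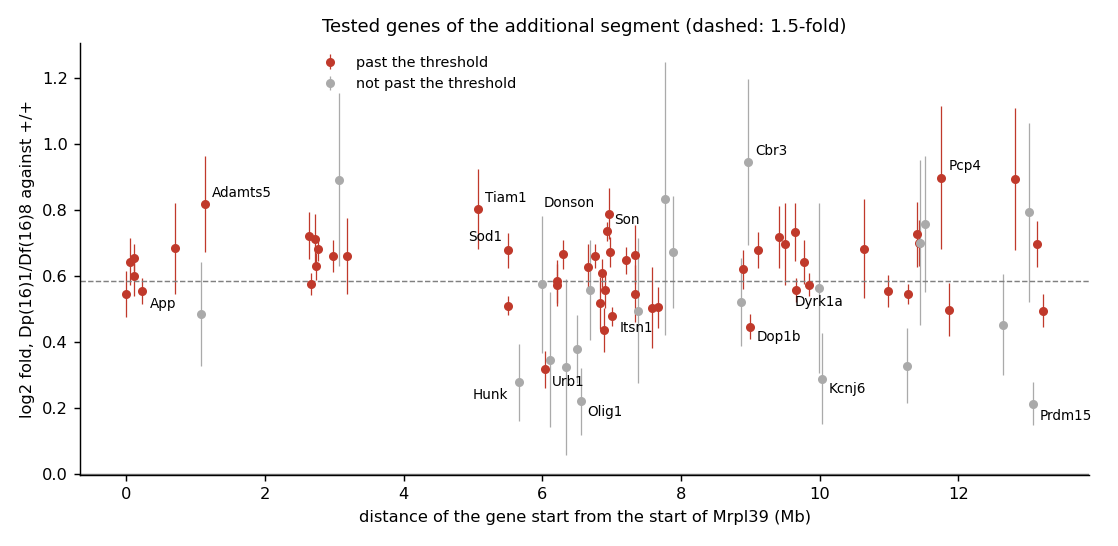
Log2 fold of Dp(16)1/Df(16)8 against +/+ (vertical axis) of the 77 tested genes of the additional segment by distance of the gene start from that of Mrpl39 in Mb (horizontal axis); bars are standard errors, red genes passed the test and the dashed line is 1.5-fold. All points lie above 0, and those far from the dashed line, such as Cbr3 and Clic6, mostly have long bars, with Urb1, Dop1b, Prdm15 and Son as exceptions.

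Of 7 tested receptor and adhesion genes 6 rose. App (84949685 to 85173766, ENSMUSG00000022892.11), whose product is cleaved to amyloid-beta peptides, had 1257, 1454 and 1605 CPM as the lowest, median and highest values in +/+ and 1904, 2124 and 2352 CPM in Dp(16)1/Df(16)8, with no overlap of the groups. The type I interferon receptor gene Ifnar1 went from 48.5, 52.4 and 55.2 CPM to 72.0, 82.2 and 90.0 CPM, again with no overlap, and a log2 fold of 0.66 (SE 0.036; adjusted p = 6.4e-15). Jam2, a junctional adhesion molecule gene, rose by log2 0.64 (SE 0.071), and the neuronal adhesion gene Dscam by 0.50 (SE 0.080) with overlapping groups. Il10rb, the shared chain of the interleukin-10 receptor, was the member that did not pass, at 4.23 ± 1.28 CPM (SD, n = 12) in +/+ and 6.25 ± 1.52 CPM (SD, n = 10) in Dp(16)1/Df(16)8. Of 4 tested channel and transporter genes 2 rose: the kainate receptor subunit gene Grik1, from 24.8 ± 5.71 to 39.1 ± 6.45 CPM, and Slc5a3, which takes up myo-inositol, from 148 ± 18.8 to 217 ± 28.6 CPM. The inward rectifier potassium channel gene Kcnj6 did not pass. Its +/+ values of 54.8, 84.5 and 119 CPM overlapped the 65.9, 106 and 163 CPM of Dp(16)1/Df(16)8, where 6 of 10 animals were above the +/+ mean. Kcnj6 passed with the striatal marker level as a term, at a log2 fold of 0.42 against 0.29 without it (adjusted p = 0.00983, edgeR).

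Of 9 tested genes listed for endocytosis and membrane traffic 8 rose; the list also holds Donson, a gene of DNA replication forks, and Cryzl1, Tmem50b and Paxbp1, which are not known for traffic alone, and these 4 were among the 8. Itsn1, an endocytic scaffold gene, went from 241, 269 and 278 CPM to 345, 371 and 391 CPM, and Synj1, a phosphoinositide phosphatase gene of synaptic vesicle recycling, from 464, 548 and 656 CPM to 707, 800 and 962 CPM; in both the groups did not overlap. Vps26c, a subunit gene of an endosomal sorting complex, and Dop1b, a gene of endosomal traffic, rose as well, 1.561-fold and 1.364-fold. Of 15 tested genes of transcription factors and chromatin 10 rose. Gabpa, an ETS factor gene that acts on many mitochondrial genes, rose by log2 0.60 (SE 0.059), Ets2 by 0.55 (SE 0.048) and Bach1, a repressor of antioxidant genes, by 0.66 (SE 0.049). The endothelial ETS factor gene Erg rose from 3.67 ± 1.16 to 5.91 ± 1.095 CPM (adjusted p = 0.015), and the related endothelial level is given below with the marker lists. The 5 that did not pass were Olig1, Olig2, Runx1, Setd4 and Prdm15. Olig1 had 39.0, 57.1 and 72.1 CPM in +/+ and 46.9, 67.1 and 78.9 CPM in Dp(16)1/Df(16)8, and Prdm15 22.9, 27.4 and 32.3 against 27.7, 32.1 and 40.5 CPM, and the ranges of the groups overlapped for both.

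Of 12 tested genes listed for signalling, ubiquitin and proteases 10 rose. Dyrk1a, a dual-specificity kinase gene, had 119, 128 and 134 CPM in +/+ and 169, 194 and 207 CPM in Dp(16)1/Df(16)8, and Rcan1, an inhibitor of calcineurin, 37.6, 45.8 and 53.2 CPM against 57.3, 63.0 and 78.3 CPM; neither overlapped between groups. Tiam1, an activator of the small GTPase Rac, rose by log2 0.80 (SE 0.12), from 197 ± 53.9 to 340 ± 53.7 CPM. Pcp4, which codes for a small regulator of calmodulin and is abundant in striatal neurons, rose by log2 0.90 (SE 0.22; adjusted p = 0.0427) with wide overlap, from 63.1, 91.6 and 210 CPM to 87.1, 231 and 260 CPM; with the striatal marker level as a term its log2 fold was 0.65. Mx2, an interferon-induced GTPase gene, rose from 1.096 ± 0.251 to 2.07 ± 1.07 CPM (adjusted p = 0.0427), with 4.86 CPM in replicate 4. The calls for Pcp4, Mx2 and the small membrane protein gene Smim11 ended when single libraries were left out, 15, 12 and 17 of the 22 in turn, and no other of the 55 did so. Of 10 tested genes listed for metabolism and redox 8 rose, among them Sod1, from 69.8, 80.9 and 90.1 CPM to 104, 132 and 146 CPM. The ATP synthase subunit genes Atp5j and Atp5o were also among the 8, at 1.575-fold and 1.567-fold. That list also holds the kinase gene Hunk, which did not pass. Of 12 tested genes listed for RNA processing and protein synthesis 8 rose, and the list also holds genes of other roles, such as the matrix protease genes Adamts1 and Adamts5. Son, a splicing cofactor gene, went from 487, 507 and 558 CPM to 783, 847 and 925 CPM, and Cct8, a subunit of the cytosolic chaperonin, from 108, 117 and 131 CPM to 173, 194 and 201 CPM. The matrix protease gene Adamts5 rose 1.764-fold from a low level, 4.70 ± 1.36 to 8.29 ± 1.97 CPM, while Adamts1 had a fold of 1.4 that did not pass.

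Set against a fold of 1.5 instead of 1, a handful of genes stood apart. Son (log2 0.74, SE 0.029), Cct8, Donson and Ifnar1 were above 1.5, 5.19% of the segment, and Prdm15 (log2 0.21, SE 0.065), Urb1 (0.32, SE 0.055), Olig1, Dop1b, Itsn1, Hunk, Scaf4, Psmg1, Dnajc28 and Kcnj6 were below, 13% of it. Adjusted p ran from 5.0e-06 for Prdm15 to 0.0465 for Ifnar1 by edgeR's quasi-likelihood test. The adjustment is lenient, because it runs over all tested genes and 89.1% of those are below 1.5 simply by being unchanged. With the striatal marker level as a term the log2 folds of Hunk and Kcnj6 against +/+ were 0.37 and 0.42, where they were 0.28 and 0.29 without it. The test against 1.5 was not run with that term. Urb1, a gene of ribosome assembly, had no overlap between groups, with 21.8 to 27.4 CPM in +/+ and 28.9 to 34.3 CPM in Dp(16)1/Df(16)8, at a fold of 1.247; in Ts65Dn;Df(17)2 its fold was 1.43, and the direct test between the aneuploid genotypes did not pass (adjusted p = 0.762).

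Gart, a purine synthesis enzyme gene on the minus strand, and Son, on the plus strand, start 554 bases apart and pointing away from each other, and their folds were 1.471 and 1.666; the standard errors on the log2 scale were 0.052 and 0.029. Cryzl1 and Itsn1, 306 bases apart in the same arrangement, were at 1.594 and 1.394. The 250 bases upstream of Gart, which lie between the starts of the first pair, are shown because they form part of its shared start region (RefSeq, GRCm38.p6, chr16:91646973-91647222, minus strand), with the CCAAT motif in capitals:
Gart upstream: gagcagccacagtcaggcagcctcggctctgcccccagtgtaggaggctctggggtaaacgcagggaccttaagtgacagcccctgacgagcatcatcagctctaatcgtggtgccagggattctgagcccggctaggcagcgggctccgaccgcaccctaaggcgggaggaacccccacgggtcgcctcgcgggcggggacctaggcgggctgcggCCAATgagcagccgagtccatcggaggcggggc
CCAAT, a short motif found in many promoters and searched on both strands, occurred once here and in 33.8% of 32851 promoter windows of the same length. On opposite strands, 5 gene pairs of the segment overlap by 192 to 2414 bases, among them Son with Donson (1.666 and 1.727), and Sod1 with Scaf4 (1.601 and 1.425). The strand setting of the counting was not given in the sources used here, so reads in the shared bases cannot be assigned to one gene of a pair.

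The 208 genes of the segment with too few counts to be tested rose as a sum. They made up 7.74, 10.8 and 21.4 CPM as lowest, median and highest values in +/+ and 12.3, 15.7 and 26.6 CPM in Dp(16)1/Df(16)8, a ratio of 1.473 (permutation p = 0.00281, two-sided). The groups overlapped, and 115 of the 208 had no count in any of the 22 libraries, while 93 had some. The highest values in both groups went with choroid plexus transcripts. Kcne2, a potassium channel subunit gene of choroid plexus that belongs to these 208, had 57 counts in Dp(16)1/Df(16)8 replicate 10 and 55 in +/+ replicate 1, against 0 to 25 in the others. Ttr, the transthyretin gene that marks this tissue, had 3327 and 5908 counts there, 2274 in Dp(16)1/Df(16)8 replicate 8 and 8 to 84 in the other 8 libraries of that genotype. Clic6, a tested chloride channel gene of the segment, was at 11.7 ± 9.78 CPM in +/+ and 21.2 ± 13.4 CPM in Dp(16)1/Df(16)8 and did not pass. The part of choroid plexus tissue in the summed value was not tested.

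The part of the duplication covered by the deficiency was at the +/+ level. From Lipi to Ncam2, 22 genes could be tested (chromosome 16, 75540514 to 81626828), and their median stood at 0.838, 0.993 and 1.25 per animal as lowest, median and highest values in Dp(16)1/Df(16)8 and at 0.880, 1.02 and 1.102 in +/+, a ratio of 0.9995 with 2 standard errors from 0.920 to 1.085 (permutation p = 0.989, two-sided). That interval does not reach 1.5. None of the 22 passed; 2050 genes of the whole comparison, 12.8%, had an unadjusted p below 0.05, and DESeq2 called 145 genes in all. Hspa13, a chaperone gene, was at 54.6 ± 4.33 CPM in +/+ and 61.4 ± 4.09 CPM in Dp(16)1/Df(16)8 (adjusted p = 0.128), and the neuronal adhesion gene Ncam2 at 233 ± 31.97 and 251 ± 50.4 CPM.

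Just outside the proximal end of the duplication some transcripts were lower. Of 12 tested genes within 5 Mb outside the ends, 2 fell, 16.7% of them, where 0.156% of all tested genes fell. Both are transcripts without a gene name and of a provisional class in the annotation, both were named after their values were seen, and both lie within the last megabase before Lipi. Gm49674 (74873039 to 74875938) had 28.6, 38.8 and 51.7 CPM in +/+ and 23.99, 28.8 and 34.1 CPM in Dp(16)1/Df(16)8. A630036G19Rik (75030852 to 75034931) had 47.1, 63.9 and 88.2 CPM in +/+ and 41.6, 49.6 and 62.7 CPM in Dp(16)1/Df(16)8, and its call ended when any of 4 libraries was left out (+/+ replicates 7 and 10, Dp(16)1/Df(16)8 replicates 4 and 6; adjusted p up to 0.0642). All 10 animals were below the +/+ mean for both, although the groups overlapped. Nearer still to Lipi, Gm49678 and Gm49677 were at 2.18 ± 0.970 and 29.6 ± 13.2 CPM in +/+ and at 1.08 ± 0.540 and 15.1 ± 10.9 CPM in Dp(16)1/Df(16)8 without passing (adjusted p = 0.139 and 0.196, and with the blocks 0.041 and 0.0669). The axon guidance receptor genes Robo1 and Robo2, farther out, did not pass either. In Ts65Dn;Df(17)2 the fold of Gm49674 was 0.939 and that of A630036G19Rik 0.958, with 26.5 to 42.0 and 53.3 to 82.1 CPM, and the direct test between the genotypes did not pass for either (adjusted p = 0.762 for both). Over all 12 flanking genes the ratio per animal was 0.986 (permutation p = 0.778).

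Outside the engineered segments few genes differed, and mostly by little. The whole comparison called 92 genes, 0.573% of those tested. Of 15909 genes outside the segments 37 changed, 0.233%: 12 rose, 0.0754%, and 25 fell, 0.157%, on 18 chromosomes. The segments set aside were Mrpl39 to Zbtb21, Lipi to Ncam2 and, for Ts65Dn;Df(17)2, chromosome 17 up to 8986648. The flanking genes and A730009L09Rik, between Ncam2 and Mrpl39, were counted as outside, so that the 37 include Gm49674 and A630036G19Rik. In 31 of the 37 the change was under 0.5 on the log2 scale. All 10 animals lay on the called side of the +/+ mean for 26 of the genes, and at least 9 for each, but the groups did not overlap for only 2 genes, Col4a2 above and Dhx37 below. In bulk tissue, fewer cells of a type and less RNA per cell cannot be told apart, which holds for every gene below. The number of genes moved with single libraries: it was 164 without Dp(16)1/Df(16)8 replicate 1, 107 without +/+ replicate 11 and 21 without Dp(16)1/Df(16)8 replicate 9. Over all genes, where 92 were called, the first 2 of these gave 222 and 165. Without Dp(16)1/Df(16)8 replicate 2, whose sex went against its label, 40 genes changed outside the segments, with 29 of the 37 among them, and 53 segment genes rose in place of 55. Through all libraries left out in turn 19 of the 37 kept their call, and 27 kept it with the striatal marker level as a term. The 10 that did not pass with that term were Mbd6, Bsg, Wdr37, P4htm, Dpp9, Gpr137, Fam171a2, Afg1l, Phospho1 and Spink10, with adjusted p from 0.0568 (Spink10) to 0.0869 (Gpr137).

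The basement membrane collagens Col4a2 and Col4a1 were the clearest of the genes that rose. They code for the chains of type IV collagen of vessel walls. Col4a2 (ENSMUSG00000031503.13, chromosome 8, 11312805 to 11449287) had 70.8, 87.6 and 101 CPM as lowest, median and highest values in +/+ and 102, 126 and 144 CPM in Dp(16)1/Df(16)8, a log2 fold of 0.50 (SE 0.062; adjusted p = 2.0e-06). Every Dp(16)1/Df(16)8 animal was above every +/+ animal, which was so for 0.00629% of the genes outside the segments. Col4a1 (11198423 to 11312826) had 56.5, 69.7 and 81.9 CPM in +/+ and 80.8, 90.0 and 106 CPM in Dp(16)1/Df(16)8, a log2 fold of 0.41 (SE 0.059; adjusted p = 3.0e-05), with 1 animal of each group in the overlap. The genes lie head to head on opposite strands, and by RefSeq their first exons share 22 bases. The stretch that holds both start sites is shown because the pair rose together (RefSeq, GRCm38.p6, chr8:11312797-11312826, plus strand; Col4a2 starts at 11312805 and runs to the right, Col4a1 starts at 11312826 and runs to the left), with the GC box GGGCGG in capitals:
Col4a1 and Col4a2 starts: ccctcggcagtgcgcGGGCGGcgtctccaa
GGGCGG, searched on both strands, occurred in 35.7% of 32851 promoter windows of 300 bases, a share for windows longer than the 30 bases shown. In Ts65Dn;Df(17)2, where 3.6% of the genes outside the segments differed from +/+, the levels were 102 to 140 CPM for Col4a2 and 81.7 to 104 CPM for Col4a1. The direct difference between the aneuploid genotypes was -0.031 (SE 0.065) and -0.00020 (SE 0.062) on the log2 scale. Of 26 tested genes of basement membrane and matrix these 2 rose and 0 fell, where 0.418% of all tested genes rose and 0.156% fell. The median log2 fold of the 26 was 0.078, and that of all tested genes was 0.0014. Col25a1, a neuronal collagen gene, was at 79.2 ± 22.3 and 107 ± 22.6 CPM without passing (adjusted p = 0.122, and 0.0125 with the blocks).

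Endothelial levels are given beside the collagens, since vessel cells make them. Of 20 tested endothelial and mural markers 18 had positive folds and 0 passed, with a median log2 fold of 0.145, and their summed level was 475 to 698 CPM in +/+ and 564 to 731 CPM in Dp(16)1/Df(16)8. Kdr, the main receptor of vascular endothelial growth factor, had the highest fold among them, at 15.4 ± 3.55 and 22.6 ± 5.96 CPM (adjusted p = 0.0973, and 0.00182 with the blocks). Erg of the additional segment is an endothelial factor too. The part of endothelial cell number in the collagen result was not tested.

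Other genes that rose outside the segments were few and varied in function. Smyd1, a methyltransferase gene known from muscle, had 0.602, 1.201 and 2.60 CPM in +/+ and 1.59, 2.90 and 5.36 CPM in Dp(16)1/Df(16)8, a log2 fold of 1.19 (SE 0.23; adjusted p = 0.00394). The kinase gene Cdkl3 rose from 7.46, 8.82 and 10.1 CPM to 9.63, 11.6 and 14.1 CPM; 1 Dp(16)1/Df(16)8 animal lay within the +/+ range. Spp1, the osteopontin gene, was at 4.75 ± 1.58 and 7.38 ± 1.72 CPM, and its call ended without any of 14 libraries in turn. Pxn, which codes for the focal adhesion protein paxillin, rose by log2 0.27 (SE 0.055) and the leucine zipper gene Luzp2 by 0.26 (SE 0.054), from 177 ± 13.95 to 212 ± 15.6 CPM. Vamp4, a gene of membrane fusion at the trans-Golgi network, rose by 0.18 (SE 0.040), and Mbd6, a gene of the methyl-CpG-binding domain family, by 0.28 (SE 0.069). Bsg and Wdr37, named after their values were seen, rose by 0.18 and 0.14. The calls for Mbd6, Bsg and Wdr37 ended without any of 15, 16 and 13 libraries in turn.

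**Figure D3:**
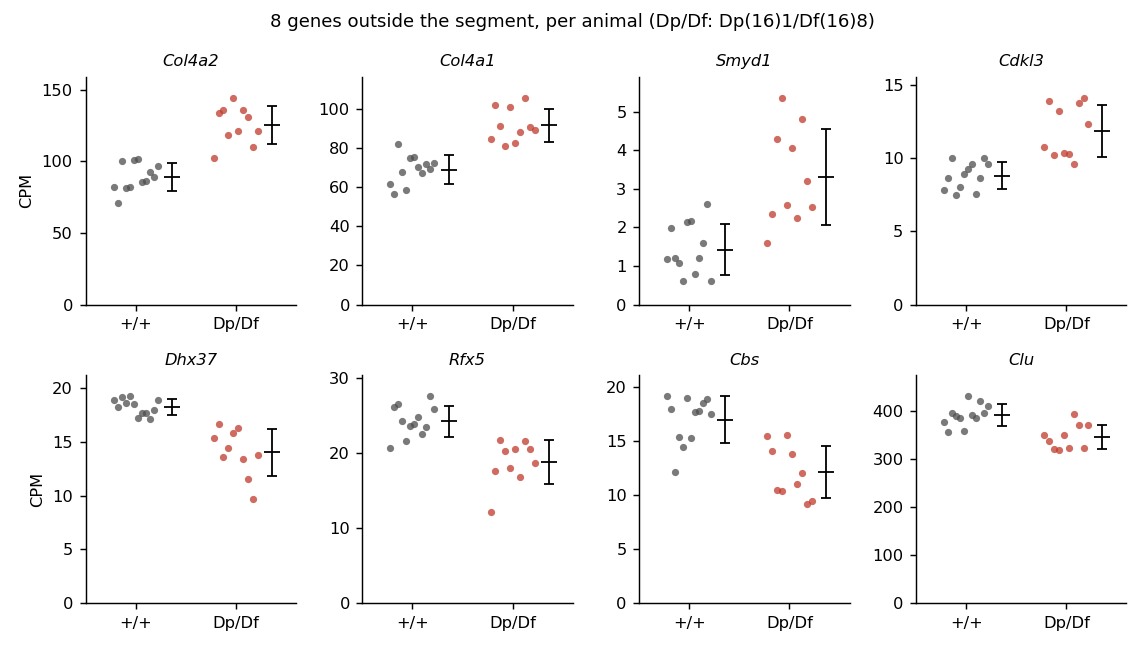
CPM (vertical axis, linear from 0) of 8 genes outside the engineered segments in each of 12 +/+ and 10 Dp(16)1/Df(16)8 animals, with group mean and SD at the right of each group. Col4a2 and Dhx37 are separated between the groups, and the other 6 overlap in at least 1 animal.

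Among the 25 genes that fell, Dhx37 separated the groups. This gene of an RNA helicase of ribosome assembly (chromosome 5, 125413858 at its start) had 17.1, 18.4 and 19.3 CPM in +/+ and 9.64, 14.1 and 16.7 CPM in Dp(16)1/Df(16)8. It fell by 0.38 on the log2 scale (SE 0.060; adjusted p = 1.6e-04), with all Dp(16)1/Df(16)8 animals below all +/+ animals, as for 0.00629% of the genes outside the segments and 0.00623% of all tested genes. Rfx5, a factor of MHC class II transcription, fell by 0.37 (SE 0.071), from 20.7, 24.03 and 27.6 CPM to 12.1, 19.5 and 21.7 CPM. Cbs, the cystathionine beta-synthase gene, is an orthologue of a human chromosome 21 gene that lies on mouse chromosome 17 and is not in the duplication. It had 12.2, 17.8 and 19.2 CPM in +/+ and 9.15, 11.5 and 15.6 CPM in Dp(16)1/Df(16)8 and fell by 0.48 (SE 0.10; adjusted p = 0.00989). Of 40 tested orthologues of human chromosome 21 genes on chromosomes 10 and 17 it was the 1 that changed. Over all tested genes 0.573% changed. Of the 40 folds 23 were above 1.

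Ucp2, a mitochondrial uncoupling protein gene, fell by 0.53 on the log2 scale (SE 0.12), from 22.6 ± 4.65 to 15.6 ± 3.45 CPM. Phospho1, a phosphatase gene, fell by 0.39 (SE 0.091), Ptges2, a prostaglandin E synthase gene, by 0.31 (SE 0.066), and Ggt7, of the gamma-glutamyltransferase family, by 0.26 (SE 0.056). Among the other genes that fell were Pdlim7 by 0.32, the kinesin gene Kifc2 by 0.25, the endolysosomal channel gene Tpcn1 by 0.23, the phosphoinositide 3-kinase regulatory subunit gene Pik3r3 by 0.22, Arhgef17 by 0.19, the protease gene Dpp9 by 0.18 and the traffic gene Tom1l2 by 0.17. Calls ended without any of 7 libraries in turn for Kifc2, 10 for Phospho1 and Pik3r3 and 12 for Dpp9, and without 1 library each for Ucp2 and Tom1l2 (Dp(16)1/Df(16)8 replicate 9 and Dp(16)1/Df(16)8 replicate 9). Clu, the clusterin gene of astrocytes, fell by 0.18 (SE 0.040), from 356, 391 and 432 CPM to 320, 345 and 393 CPM, and its call ended without any of 6 libraries in turn. It was the 1 of 20 tested astrocyte markers that changed, where 0.573% of all tested genes changed. The median log2 fold of the 20 was -0.028, with the water channel gene Aqp4 at 144 ± 18.01 and 167 ± 17.3 CPM without passing (adjusted p = 0.0955, and 0.0365 with the blocks). Spink10, a protease inhibitor gene at 7.86 ± 1.72 and 5.43 ± 1.34 CPM, fell by 0.54 (SE 0.13), and its call ended without any of 16 libraries in turn.

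Some of the 37 were named after their values were seen. D10Wsu102e fell by 0.31 (SE 0.047; adjusted p = 8.1e-05), from 465.8, 495 and 613 CPM to 371, 395 and 510 CPM, where 9 of 10 Dp(16)1/Df(16)8 animals were below every +/+ animal. Gm46637, a scarce non-coding transcript, fell by 0.99 (SE 0.20), from 2.21 ± 0.819 to 1.09 ± 0.372 CPM. Fam171a2, Gpr137, Afg1l, P4htm and Ubp1 fell by 0.15 to 0.25, with calls that ended without any of 10 to 18 libraries in turn.

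The pigment gene Tyr was present at a trace, and the agouti transcript appeared in Dp(16)1/Df(16)8 alone of the groups compared. Tyr, the tyrosinase of melanin synthesis (chromosome 7, 87424771 to 87493512), had 2 to 7 counts in each Dp(16)1/Df(16)8 library, 38 in all, and 0 to 3 in each +/+ library, 8 in all. The ratio of scaled counts was 5.76 (95% exact binomial interval 2.65 to 14.3, for counting error only), and edgeR's quasi-likelihood test gave an adjusted p of 9.0e-04. Tyr passed the filter on low counts through Ts65Dn;Df(17)2, and with no filter its adjusted p was 0.00121. In Ts65Dn;Df(17)2 it had 75 to 168 counts per library, and the direct difference between the aneuploid genotypes was -4.75 on the log2 scale (SE 0.20; adjusted p = 2.0e-17). The agouti gene, whose symbol is a (chromosome 2, 154791402 to 155051012), a secreted regulator of coat colour, had too few counts for the test across genes. It had 2 to 16 counts in each of the 10 Dp(16)1/Df(16)8 libraries, 87 in all, and 0 in the 12 +/+ libraries, at least 27.98-fold higher by the exact lower 95% limit of the ratio, for counting error only, and 35.15-fold against a floor of 3 counts over the +/+ group. Ts65Dn;Df(17)2 libraries had 0 to 9 counts, 44 in all. Tyr and agouti sequences serve as coat colour tags in some chromosome engineering vectors, as background; whether the reads come from such a tag was not tested.

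**Figure D4:**
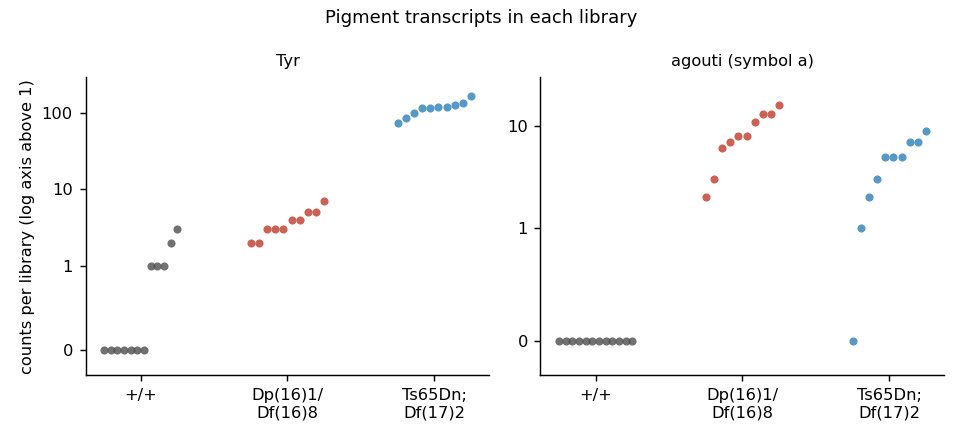
Counts of Tyr and of the agouti gene (vertical axis, logarithmic above 1) in each library of +/+ (12), Dp(16)1/Df(16)8 (10) and Ts65Dn;Df(17)2 (10), sorted within a group. Agouti counts are 0 in all +/+ libraries and 2 to 16 in the Dp(16)1/Df(16)8 libraries, while Tyr has 2 to 7 counts in Dp(16)1/Df(16)8 and 75 to 168 in Ts65Dn;Df(17)2.

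Of the 37 gene lists outside the segment 4 held a changed member, and the changed genes are those named above: Col4a1 and Col4a2, Cbs, Clu and Tyr. In the lists that follow 0 genes passed edgeR's test; by comparison 2050 genes of the whole table had an unadjusted p below 0.05, 12.8%. Some lists nevertheless leaned one way, where 50.5% of all tested genes had a positive fold. Of 23 interferon-stimulated genes 20 were positive, with a median log2 fold of 0.29 and a summed level of 133 to 171 CPM in +/+ and 154 to 257 CPM in Dp(16)1/Df(16)8. Ifit1, one of them, was at 1.54 ± 0.606 and 2.45 ± 1.17 CPM. Of 22 immediate early genes of neuronal activity 21 were negative, with a median of -0.33, among them Egr3 at 197 ± 97.7 and 147 ± 52.9 CPM and Ier2 at 5.72 ± 3.17 and 3.47 ± 1.65 CPM. All 18 tested striatal markers were positive, with a median of 0.51 that was 0.0055 with their own mean as a term, and Penk, the enkephalin gene, was at 167 ± 142 and 267 ± 168 CPM. Excitatory cortical neuron markers had 15 of 20 negative folds and a median of -0.22, which was -0.12 with the striatal term. Interneuron markers had 17 of 20 positive and a median of 0.19, which was 0.11 with that term. Markers of olfactory bulb and tubercle had 8 of 9 positive and a median of 0.33, which was 0.12 with that term, and thalamic and septal markers 10 of 13 and 0.24, which was 0.027. Of 10 mitochondrially encoded genes 9 were positive, with a median of 0.12, which was 0.073 with the term. The part of the striatal level in these leanings was not tested further.

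Medians of lists of core functions stood near that of all genes, although members of some lists mostly shared a sign. Of 30 cytosolic ribosomal protein genes 24 had positive folds, as had 50.5% of all tested genes. The median log2 fold was 0.0041 for 30 proteasome genes, 0.028 for 30 cytosolic ribosomal protein genes, 0.016 for 29 nuclear respiratory chain genes and 0.0063 for 18 cytosolic heat shock genes. It was -0.079 for 24 stress response genes (unfolded proteins and translation control), 21 of them negative, and -0.084 for 14 targets of p53, 12 of them negative. Among families of the synapse it was -0.066 for 20 postsynaptic scaffold genes, 17 of them negative, -0.072 for 28 genes of presynaptic release and 0.043 for 14 GABA-A receptor subunit genes. For myelin genes it was 0.0028 over 20, and for oligodendrocyte precursor markers other than the Olig genes -0.0037 over 13. Microglia markers were at 0.050 over 20 genes.

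**Figure D5:**
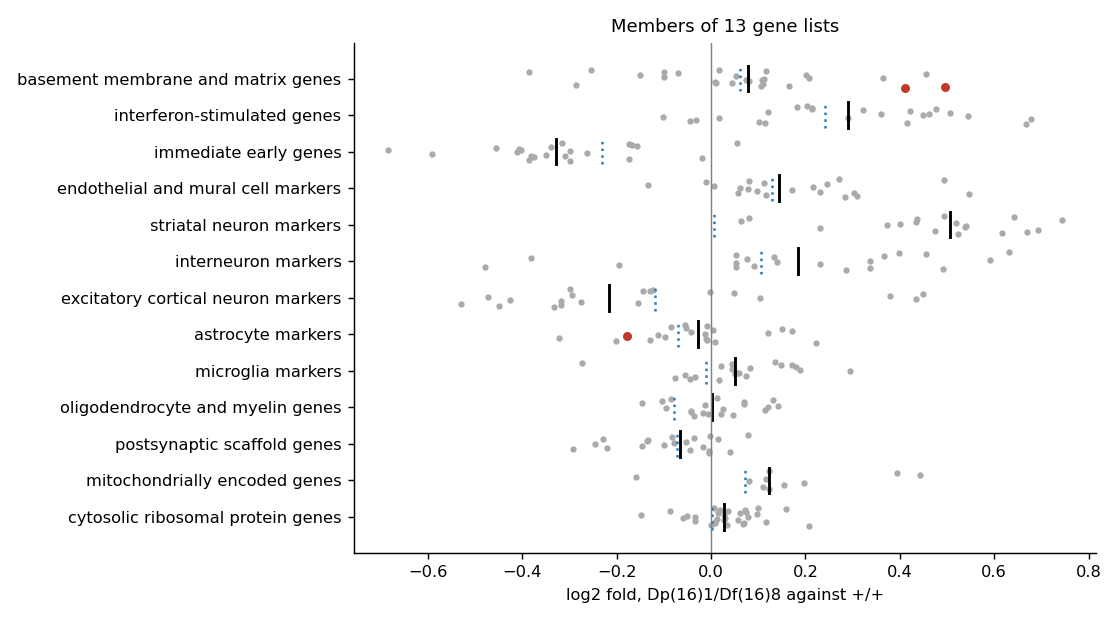
Log2 fold of Dp(16)1/Df(16)8 against +/+ (horizontal axis) of each tested member of 13 gene lists (rows); red members passed the test, the black bar is the list median and the dotted blue bar the median with the striatal marker level as a term. Most medians lie within 0.2 of 0. Those of the interferon-stimulated, immediate early and excitatory lists lie farther out, and each of these moves toward 0 with the term. The striatal median lies farther out too. Its move toward 0 is fixed in advance, because the term is the mean of the same markers.

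Set directly against Ts65Dn;Df(17)2, 8 genes differed from Dp(16)1/Df(16)8, 0.0499% of those tested. The test did not pass for 36 of the 37 genes above, and Tyr was the exception. Lower in Dp(16)1/Df(16)8 were Tyr, Gm49806, C87487, A730009L09Rik, Gm21926, Pisd-ps2 and B230307C23Rik; all but Tyr lie on chromosomes 16 and 17, in or near the rearranged parts, and were named after their values were seen. C87487 had 5 counts in all against 1 in +/+ and 213 in Ts65Dn;Df(17)2, and Gm49806 had 2 against 5 and 287. C87487, Gm49806, Tyr and, largely, A730009L09Rik (204 counts in Ts65Dn;Df(17)2) entered the test through that genotype, where they are high. The filter on low counts used all 3 genotypes. B230307C23Rik, just beyond the distal end of the duplication, was at 8.81 ± 1.01 CPM in Dp(16)1/Df(16)8 and 7.95 ± 1.25 CPM in +/+. A730009L09Rik lies inside the duplicated interval, between Ncam2 and Mrpl39, and had 51 counts against 30 without passing against +/+ (adjusted p = 0.277). Gm28437, a pseudogene that can share reads with near-identical copies, so that its counts are uncertain, was higher in Dp(16)1/Df(16)8, with 25 to 50 counts per library against 3 to 8 in Ts65Dn;Df(17)2 and 4 to 37 in +/+. No gene changed differently between females and males by the test of the interaction of genotype and sex in edgeR, with 804 genes, 5.01%, at an unadjusted p below 0.05. The smallest adjusted p was 0.498, for the choroid plexus gene Ttr, with a log2 fold of -6.18 in females and 3.39 in males by label. Without Dp(16)1/Df(16)8 replicate 2 the interaction test also called 0 genes. Ttr counts were highest in +/+ replicates 1, 2, 3 and 12 and Dp(16)1/Df(16)8 replicates 8 and 10, and 101 or fewer in the other libraries of these groups.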

How the data were processed

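Total RNA of mouse cortex, depleted of ribosomal RNA, was sequenced from 32 animals, and the authors deposited 1 table of raw read counts per gene. Per the submitters' processing notes the tools were STAR 2.7.9a, featureCounts (Subread 1.6.4) and, for base call conversion, bcl2fastq 2.20, and the builds GRCm38.p6 and GRCh38 are named without their role; the annotation release and the strand setting are not given in the sources used here. From the deposited counts, genes were kept by filterByExpr with genotype as group (16042 genes with 99.7% of the counts). TMM factors and edgeR 4.0.16's quasi-likelihood test in R 4.3.3 followed, with genotype and sex as terms over all 32 libraries, which share 1 estimate of the spread, and Benjamini-Hochberg adjustment over all tested genes at 0.05. Values are CPM with TMM scaling, and log2 CPM values use a prior count of 2. Values per animal were compared by two-sided permutation tests with 100000 permutations. The scripts were tested on simulated data. Coordinates are GENCODE's for GRCm38, and 55141 of 55401 genes had one. The ends of the engineered segments come from background knowledge of the strains. The animals were not said to be littermates or from separate litters, so p-values measure the spread between these animals. Blocks of neighbouring animal numbers (a new block after a gap of over 10) stand for no stated batch.

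Alternatives were DESeq2 1.42.0, limma 3.58.1 voom, DESeq2 size factors, 2 other filters, no sex term, only the 22 libraries compared, the blocks, the striatal marker level, and each library left out in turn. Outside the segments the genes named are those past the threshold with the 10 highest and 10 lowest fold changes, and then 6 more by smallest adjusted p, without pseudogenes and provisional symbols and with a mean log2 CPM of at least 0; others are said to have been named after their values were seen. The genes and lists were chosen with earlier results of these data known.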

Additional observations from a re-analysis of the deposited data

Results flagged for a closer look

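Of 119 groups of 10 values examined in Dp(16)1/Df(16)8, 7 held a lowest or highest animal set apart from the next. Its gap to the next was over 0.466 of the range of the group. Chance gives about 1 group in 20, close to the share found here. Replicate 1, the library farthest from the others of its group, was such an animal for 3 genes: Rfx5 at 12.1 CPM where the next was 16.8 CPM, D10Wsu102e at 510.3 CPM where the next was 439.9 CPM, and the segment gene Hlcs at 20.7 CPM where the next was 29.5 CPM. Tyr reached 0.938 CPM in replicate 3, with 0.626 CPM next. The segment genes Mx2 and Ripk4 reached 4.86 CPM in replicate 4 and 3.08 CPM in replicate 8, with 2.44 and 1.63 CPM next. The summed level of the segment genes with too few counts to be tested was 26.6 CPM in replicate 10, with 18.9 CPM next; that replicate also had the most Ttr and Kcne2 counts of its group.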

How the results depend on the processing

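The ratio of the additional segment per animal kept its direction and side of the threshold under the 27 alternatives run for it. That of the Lipi to Ncam2 part did not pass in any of its 27 and lay on either side of 1, from 0.976 to 1.021. Counts of changed genes moved. Of all tested genes 92 changed, against 145 by DESeq2, 246 with blocks of neighbouring animal numbers as a term, and 214 with the blocks and the striatal marker level together, an alternative chosen after seeing the data. Outside the segments 37 changed, against 85, 186 and 155 under the same 3 alternatives and 22 when the fit held only the 22 libraries compared. With single libraries left out, the count ran from 74 to 222 over all genes and from 21 to 164 outside the segments. The interaction of genotype and sex gave 0 genes, and 0 to 2 with libraries left out, the 2 without Dp(16)1/Df(16)8 replicate 6. The causes were not tested. List medians near 0 changed sign with the blocks for cytosolic heat shock genes (0.0063 to -0.012) and oligodendrocyte precursor markers (-0.0037 to 0.0035), and with the striatal marker level as a term for myelin genes (0.0028 to -0.079) and microglia markers (0.050 to -0.010). No paired analysis was possible because the labels number each animal on its own and give the genotypes no shared replicate numbers. Library totals were 5795479 to 9149196 counts, and the segment genes that did not pass had a median +/+ level of 4.41 CPM. More abundant genes were among them too, such as Kcnj6 and Olig1 with +/+ means of 86.2 and 56.3 CPM. The part of sequencing depth was not tested.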

Other observations

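With blocks of neighbouring animal numbers as a term, 151 further genes passed outside the segments, 60 higher and 91 lower in Dp(16)1/Df(16)8, beside 35 of the 37 that passed without it. The genes named here were chosen after their values were seen. Camkk1, a kinase gene of calcium signalling, had a log2 fold of -0.42 with the blocks (adjusted p = 3.1e-04, edgeR) and -0.40 without (adjusted p = 0.0797). Kdr, the endothelial growth factor receptor gene, had 0.56 with the blocks (adjusted p = 0.00182). The folds of Camkk1 and Kdr moved little. Others moved more with the blocks, such as Cfap47 from 0.58 to 0.73 and Ccnd2 from -0.30 to -0.37. Some moved slightly toward 0, such as Dyrk1b from -0.29 to -0.28. Whether the blocks mark a shared day, litter or handling was not tested.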
